A study of Mus musculus with 2 samples.

Results

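The ISG15 conjugation pathway is described here through the transcripts of 5 genes, Isg15, Uba7, Ube2l6, Herc6 and Usp18, of the 32285 genes counted in sorted CD45+ cells of virus-infected mice. The members are defined by their role in the pathway and not by a threshold on a value, but they were picked with earlier results of these data known. All 5 were found in every library. ISG15 is a ubiquitin-like protein that interferon induces strongly. It is joined to lysines of other proteins by an enzyme cascade that runs beside the one for ubiquitin: UBA7 activates ISG15, UBE2L6 carries it, and HERC6 is the main ligase of the mouse. USP18 cleaves ISG15 from its targets and also binds the type I interferon receptor, where it dampens signaling. All 5 genes are themselves interferon-stimulated, and in infected tissue they are commonly read as a sign of exposure to interferon.

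C57BL/6 mice carried either the wild type Ptpn22 allele (PEP-WT) or the 619W allele on both chromosomes (PEP-619WW), the mouse counterpart of a human variant linked to autoimmunity in the phosphatase PEP. Both groups received LCMV-cl13, the clone of lymphocytic choriomeningitis virus used to model chronic infection, and spleens were taken at day 8. Splenocytes of 4 to 5 mice per genotype, matched for age and sex, were pooled and sorted for live CD45+ cells, so that 1 library stands for a pool of animals. No uninfected control was among the samples. The sample labels also name liver, the Jurkat line and tumor-infiltrating cells, which goes against the protocol text and the mouse counts.

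The 10x Genomics 3' assay marks each captured transcript with a cell barcode and a unique molecular identifier (UMI). For each genotype 2 sets of counts were deposited, called run 1 and run 2 here. There were 14821 barcodes in run 1 for PEP-WT and 8576 for PEP-619WW, and 9539 and 11029 in run 2. The latter pair equals the cell estimates stated in the Methods of the study. The study also splits B and T cells of each genotype into clusters. The PEP-WT library of run 2 held few such barcodes (counts below), against 6937 B, 361 CD4 T and 1439 CD8 T barcodes in run 1. The study further reports relatively higher Isg15, along with Isg20, Oasl2, Ifi44 and Ifi27l2a, in PEP-WT CD4 T cells. In the CD4 T gate of run 1 Isg15 was also higher in PEP-WT, within the limits given below. Run 2 had too few PEP-WT barcodes for that comparison. Which run the study describes is thus not settled. No source used here gives the barcode counts of run 1. Whether both runs come from the spleen experiment is not settled, so each genotype ratio below holds for its own run, and the runs were kept apart and not treated as replicates. The 4 libraries held 55504449 to 77916082 UMIs, with a median of 2832 to 4837 UMIs per barcode. The runs differed in content. In run 2, 249 barcodes (PEP-WT) and 25 barcodes (PEP-619WW) carried at least 3 of 5 melanocyte genes, against 0 in run 1, whereas the PEP-WT library of run 2 held 28 CD8 T, 12 CD4 T, 2 B and 0 plasma barcodes. Between 19 and 49 barcode sequences were shared by any pair of libraries. The 3' counts cannot show the amino acid substitution, and Ptpn22 itself was at 76.7 and 94.7 CPM (UMIs scaled to a total of 1000000) in run 1 and at 19.4 and 67.2 CPM in run 2, PEP-WT first.

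Barcodes were placed in 6 gates by marker UMIs: CD8 T (Cd3e and Cd8b1 above 0), CD4 T (Cd3e and Cd4 above 0), B (Cd79a and Ms4a1 above 0), plasma (at least 5 Mzb1), monocyte or macrophage (at least 5 Lyz2) and neutrophil (at least 20 S100a8 and S100a9 together). UMIs of a gene were summed over a gate and divided by all UMIs of that gate to give CPM, and the genotypes were compared as a log2 ratio of PEP-619WW over PEP-WT. With 1 library per genotype there was no replicate error and no test. The 95% intervals are exact Poisson or binomial intervals and cover counting error only. Ratios were formed where both genotypes had at least 50 barcodes, which left all 6 gates of run 1 and the monocyte or macrophage and neutrophil gates of run 2. A gene counted as lower or higher if it had at least 50 UMIs over both genotypes and differed by at least 1.5-fold.

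In the GRCm38 assembly, Isg15 lies at chr4:156199424-156200818 on the minus strand. Uba7 lies at chr9:107975505-107984060, Ube2l6 at chr2:84798828-84810335, Herc6 at chr6:57581000-57664632 and Usp18 at chr6:121245906-121270917, all on the plus strand. All are protein-coding. Gm44148, a noncoding gene on the opposite strand, overlaps Usp18 and is counted in the same files, and whether counting used strand is not stated. The other annotated genes that overlap Uba7 and Herc6 are not among the counted genes.

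The Isg15 promoter is shown because the genotypes differed most in Isg15 in 5 of 6 gates of run 1 and because its promoter carries repeats of the interferon-stimulated response element (ISRE), the sequence bound by the interferon-activated factor ISGF3. RefSeq promoters (GRCm38.p6, 250 bases before to 50 after the start of transcription) were found for 4 of the 5 members, and none for Usp18. The ISRE core, GAAA followed by any 2 bases and GAAA, was searched on both strands, and the 3 overlapping matches, all on the strand of the gene and from 78 to 57 bases before the start, are in capitals in chr4:156200769-156201068, minus strand, 5′ to 3′:
Isg15: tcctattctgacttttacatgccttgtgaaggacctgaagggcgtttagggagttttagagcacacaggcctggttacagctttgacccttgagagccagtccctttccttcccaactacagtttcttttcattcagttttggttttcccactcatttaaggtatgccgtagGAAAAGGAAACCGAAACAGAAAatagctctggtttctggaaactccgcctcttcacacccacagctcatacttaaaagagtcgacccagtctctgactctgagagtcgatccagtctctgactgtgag

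The same core was in 3.44% of the 32851 promoters of the table. Its letters were not in the windows of Uba7, Ube2l6 or Herc6. Of 30 other interferon-stimulated genes listed below, 22 had a promoter in the table, and 12 of these held the core. The core of the interferon gamma-activated site, TTC followed by any 3 bases and GAA, was in 8.30% of promoters and in none of the 4 windows of the members.

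Isg15, the ubiquitin-like modifier, was lower in PEP-619WW in all 6 gates of run 1. In CD8 T barcodes its level was 358 CPM (348 to 368) in PEP-WT and 122 CPM (116 to 129) in PEP-619WW, from 4961 and 1539 UMIs in 1439 and 953 barcodes. In B barcodes it was 279 and 108 CPM, and in plasma barcodes 343 and 129 CPM. Levels were highest in the myeloid gates, at 878 and 301 CPM in monocyte or macrophage barcodes and 1505 and 394 CPM in neutrophil barcodes. CD4 T barcodes stood at 339 CPM (320 to 360) and 217 CPM (200 to 235). The intervals of the genotypes did not overlap in any of the 6 gates. They cover counting error only, and the share of all genes with intervals apart is not given here. Among PEP-WT gates the order ran from neutrophil through monocyte or macrophage to CD8 T, plasma, CD4 T and B; the intervals of CD8 T, plasma and CD4 T overlapped. In PEP-619WW the order was neutrophil, monocyte or macrophage, CD4 T, plasma, CD8 T and B, with overlap between plasma and CD8 T.

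**Figure D1:**
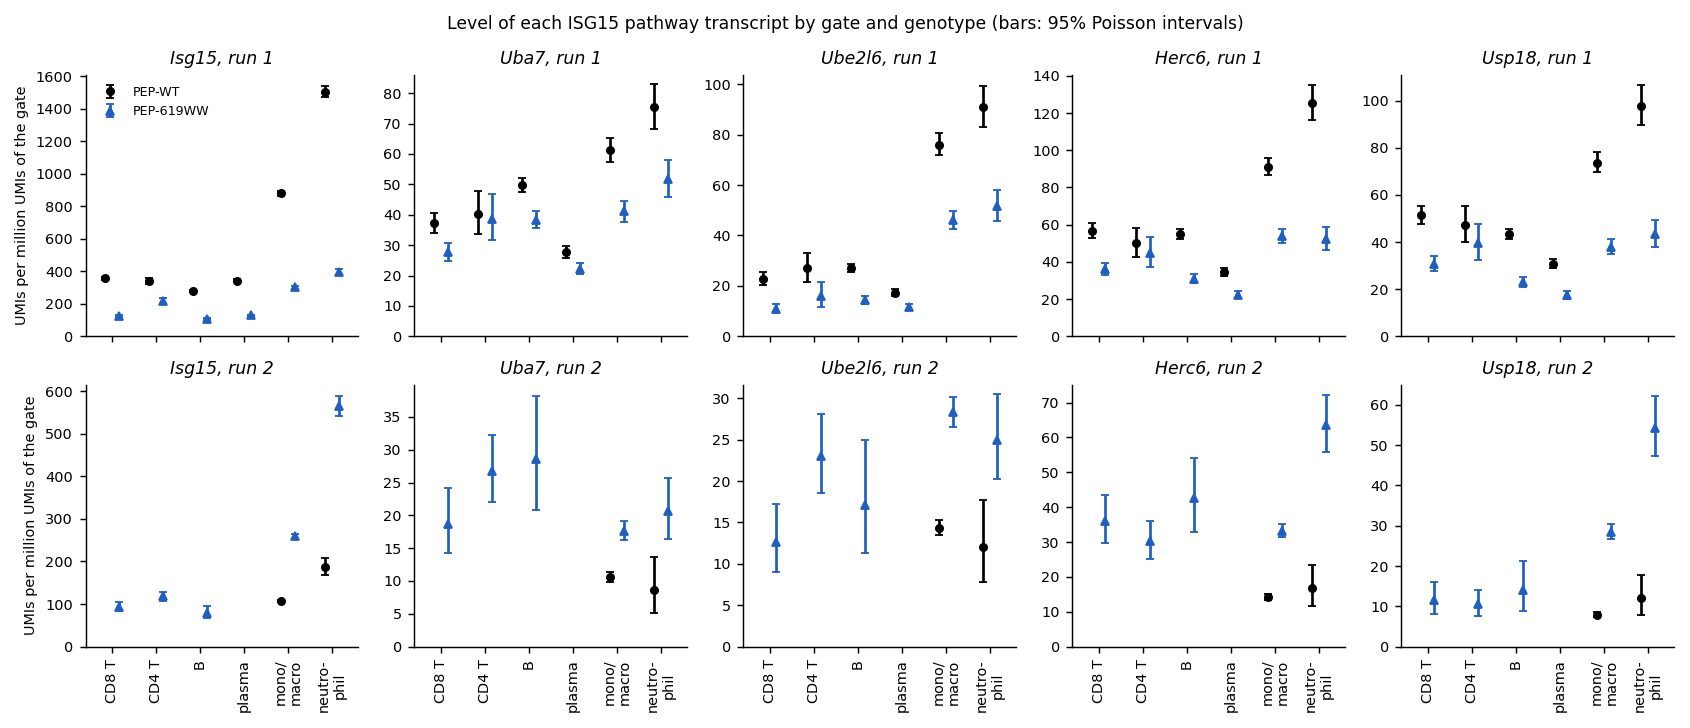
Level of each transcript (y axis, CPM; scales differ between panels) in the 6 gates (x axis) for PEP-WT (black circles) and PEP-619WW (blue triangles), run 1 above and run 2 below, with 95% Poisson intervals; points with fewer than 50 barcodes are not drawn. PEP-619WW lies below PEP-WT in run 1, with intervals that overlap for Uba7, Herc6 and Usp18 in CD4 T barcodes, and above it in the 2 gates of run 2 that hold both genotypes.

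The log2 ratio of Isg15 in run 1 was -1.55 (-1.63 to -1.46) in CD8 T, -0.65 (-0.79 to -0.50) in CD4 T, -1.38 (-1.44 to -1.31) in B, -1.41 (-1.47 to -1.36) in plasma, -1.54 (-1.59 to -1.49) in monocyte or macrophage and -1.93 (-2.00 to -1.86) in neutrophil barcodes. In PEP-WT over PEP-619WW this was a 2.92-fold difference in CD8 T and a 3.82-fold difference in neutrophil barcodes. The CD4 T value rested on barcodes that also entered other gates. In the 239 and 179 CD4 T barcodes that entered no other gate, Isg15 was 297 and 268 CPM, with a log2 ratio of -0.15 (-0.36 to 0.07).

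Uba7, which encodes the activating enzyme, showed the smallest difference of the 5 members in every gate of run 1. It was at 37.2 and 27.6 CPM in CD8 T, 49.8 and 38.4 CPM in B, and 61.3 and 41.1 CPM in monocyte or macrophage barcodes, PEP-WT first. Its log2 ratio was between -0.58 (monocyte or macrophage) and -0.06 (CD4 T, -0.44 to 0.32), and it reached 1.5-fold in no gate of run 1.

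Ube2l6, which encodes the conjugating enzyme, was at 22.9 CPM (PEP-WT) and 10.8 CPM (PEP-619WW) in CD8 T barcodes, a log2 ratio of -1.08 (-1.38 to -0.79). It was at 27.1 and 14.4 CPM in B barcodes, 76.0 and 46.0 CPM in monocyte or macrophage barcodes and 91.0 and 51.7 CPM in neutrophil barcodes. The plasma ratio of -0.58 lay just short of 1.5-fold, at 1.499-fold.

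Herc6, which encodes the ligase, was at 125 and 52.4 CPM in neutrophil barcodes, a log2 ratio of -1.26 (-1.46 to -1.06). Its ratio was -0.83 (-0.96 to -0.71) in B, -0.76 (-0.89 to -0.63) in monocyte or macrophage, -0.65 (-0.82 to -0.48) in CD8 T and -0.63 (-0.77 to -0.48) in plasma barcodes. In CD4 T barcodes, at 50.2 and 44.8 CPM, the interval held 0 (-0.51 to 0.18).

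Usp18, which encodes the deconjugating enzyme, was at 51.5 and 30.6 CPM in CD8 T, 43.4 and 23.1 CPM in B and 30.7 and 17.5 CPM in plasma barcodes. The log2 ratio was -0.75 (-0.93 to -0.57), -0.91 (-1.06 to -0.76) and -0.81 (-0.98 to -0.65), respectively. It was -0.96 (-1.11 to -0.80) in monocyte or macrophage and -1.18 (-1.40 to -0.95) in neutrophil barcodes. In CD4 T barcodes it was -0.26 (-0.63 to 0.10).

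Of the 5 members, 4 were lower in CD8 T barcodes, where 4.69% of 10838 genes were lower and 3.91% higher. In CD4 T barcodes 2 were lower (background 6.66% lower, 6.38% higher), in B barcodes 4 (3.95% and 5.52%), in plasma barcodes 3 (4.28% and 4.54%), in monocyte or macrophage barcodes 4 (5.14% and 3.75%) and in neutrophil barcodes 4 (9.55% and 3.88%). No member was higher in a gate of run 1. The median log2 ratio of all genes lay within 0.1 of 0 in all run 1 gates except neutrophil, where it was -0.11, and the neutrophil values of Isg15 and Herc6 relative to that shift were -1.82 and -1.15.

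**Figure D2:**
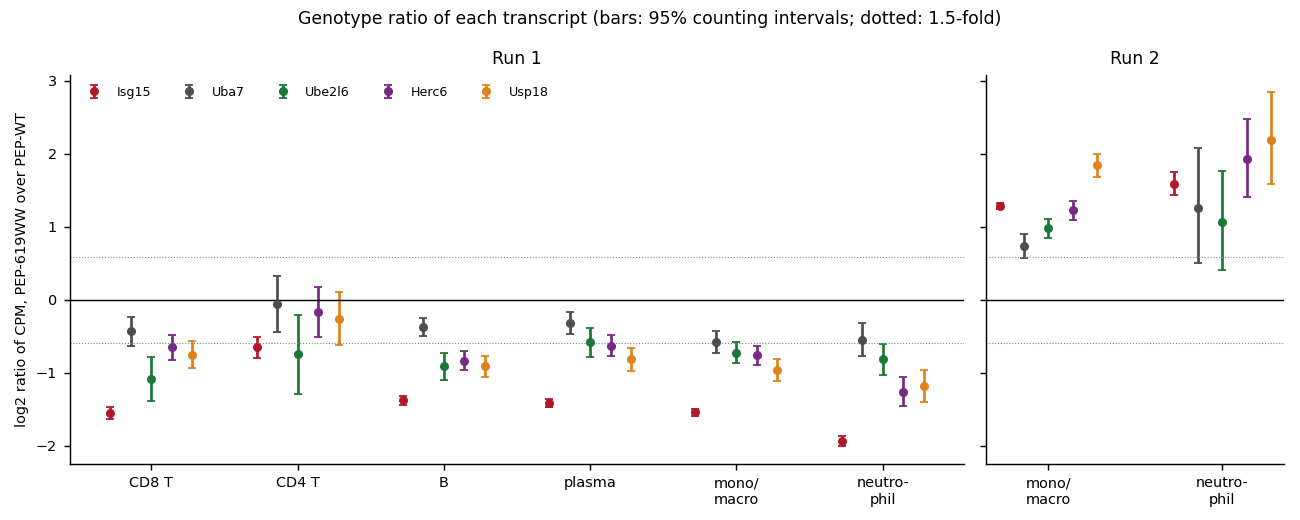
Log2 ratio of CPM, PEP-619WW over PEP-WT (y axis), for the 5 members (colors) in the gates of run 1 (left) and run 2 (right), with 95% counting intervals and dotted lines at 1.5-fold. Isg15 is the lowest point in 5 of 6 gates of run 1, from -1.93 to -1.38 there, while all points of run 2 lie above 0.

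Barcodes that entered several gates were common in run 1, at 2459 in PEP-WT and 1788 in PEP-619WW. Whether they held RNA of several cells was not tested. The gates overlapped most between monocyte or macrophage and neutrophil, with 554 PEP-WT and 562 PEP-619WW barcodes in both, and between B and plasma, with 1422 and 831. In barcodes of a single gate, Isg15 was also lower in PEP-619WW by a log2 ratio of -1.32 in CD8 T, -1.64 in B, -1.68 in plasma, -1.40 in monocyte or macrophage and -2.14 in neutrophil barcodes. The neutrophil level was then 4329 and 984 CPM (213 and 210 barcodes). In those barcodes Herc6 no longer reached 1.5-fold in CD8 T, plasma and monocyte or macrophage gates (-0.42, -0.47 and -0.52), nor did Ube2l6 in monocyte or macrophage and neutrophil gates (-0.55 and -0.48), and Uba7 passed it in monocyte or macrophage and neutrophil gates (-0.73 and -0.80). The sign turned in CD4 T barcodes of a single gate for Herc6, at 43.7 and 59.9 CPM (0.46, -0.06 to 0.98), for Usp18, at 48.9 and 61.5 CPM (0.33, -0.17 to 0.83), and for Uba7 (0.05, -0.51 to 0.61), all with intervals that held 0.

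UMIs of the gate's own markers were found in every gate with at least 50 barcodes. In 2 gates of run 1, and in the PEP-619WW neutrophil gate of run 2, other markers summed higher. In the monocyte or macrophage gate 5 neutrophil markers summed to 2911 CPM (PEP-WT) and 5945 CPM (PEP-619WW) and 4 plasma cell markers to 2350 and 3018 CPM, against 772 and 636 CPM of its own 5. In the B gate plasma cell markers summed to 2291 and 3760 CPM, against 1717 and 1580 CPM of B cell markers. Their part in the ratios was not tested. Summed over 4 T cell markers, CD8 T barcodes of run 1 had 3291 and 3002 CPM, with 224 and 214 CPM of 4 B cell markers but 1961 and 2990 CPM of the plasma cell markers. The 5 neutrophil markers summed to 9138 CPM in PEP-WT and 15782 CPM in PEP-619WW neutrophil barcodes of run 1, against 1799 and 1159 CPM in run 2, where 5 monocyte or macrophage markers in the same gate summed to 1127 and 1330 CPM. Erythroid RNA moved with genotype: 4 erythroid markers summed to 9960 CPM (PEP-WT) and 1246 CPM (PEP-619WW) over the whole of run 1, to 1100 and 229 CPM in CD8 T and 1521 and 46.2 CPM in CD4 T barcodes. In the PEP-WT B gate they summed higher than any other marker list, at 2419 CPM against 321 CPM in PEP-619WW, and in the PEP-WT monocyte or macrophage gate, at 1333 against 559 CPM, higher than the gate's own. Erythroid barcodes (at least 5 Alas2) were rich in Isg15, at 1778 CPM, and in Ube2l6, at 477 CPM, in 207 PEP-WT barcodes. If all erythroid marker RNA of the PEP-WT CD8 T gate had brought the other RNA of erythroid barcodes with it, this would amount to 1.47 CPM of Ube2l6. That assumption was not checked and was made for PEP-WT alone. Under it the largest amounts over the 6 gates were 3.24 CPM of Ube2l6 and 12.1 CPM of Isg15 (both in B). The part of erythroid and other free RNA in these levels was not tested.

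Within CD8 T barcodes the share with a UMI of Gzmb, a cytotoxic effector gene, was 66.2% in PEP-WT and 86.7% in PEP-619WW. The difference in Isg15 was present on both sides of that split. In barcodes with Gzmb plasma cell markers summed to 2014 CPM in PEP-WT and 3053 CPM in PEP-619WW, the latter above the 2959 CPM of T cell markers, and their part in the difference was not tested. With Gzmb, Isg15 was 351 and 121 CPM, a log2 ratio of -1.54 (-1.63 to -1.45). Without Gzmb it was 377 and 138 CPM, a log2 ratio of -1.45 (-1.69 to -1.21).

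The same held at the level of single barcodes. Each barcode was thinned at random to 1000 UMIs, leaving out shallower ones, so that depth was equal. Among neutrophil barcodes of run 1 an Isg15 UMI was then found in 73.2% of 776 (PEP-WT) and 31.5% of 807 (PEP-619WW) (94.7% and 64.7% before thinning). In monocyte or macrophage barcodes the shares were 57.7% and 26.5%, in CD8 T 22.8% and 8.92%, in B 15.0% and 6.14%, in plasma 19.6% and 9.60% and in CD4 T 26.0% and 16.1%. Before thinning these were 91.4% and 67.2%, 60.3% and 45.4%, 35.6% and 21.9%, 60.0% and 41.4%, and 64.3% and 49.4%. No barcode class served as a reference without these transcripts, since erythroid barcodes had an Isg15 UMI in 59.7% of 201 thinned PEP-WT barcodes.

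Barcodes with 3 or more Isg15 UMIs per 1000 were fewer in PEP-619WW in all 6 gates. They were 39.2% (35.7 to 42.7) of PEP-WT and 5.82% (4.31 to 7.67) of PEP-619WW neutrophil barcodes, and 15.8% and 2.90% of monocyte or macrophage barcodes. In CD8 T barcodes they were 2.23% (1.53 to 3.13) and 0.425% (0.116 to 1.08). In CD4 T barcodes, 8 of 358 and 5 of 261, the intervals overlapped.

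**Figure D3:**
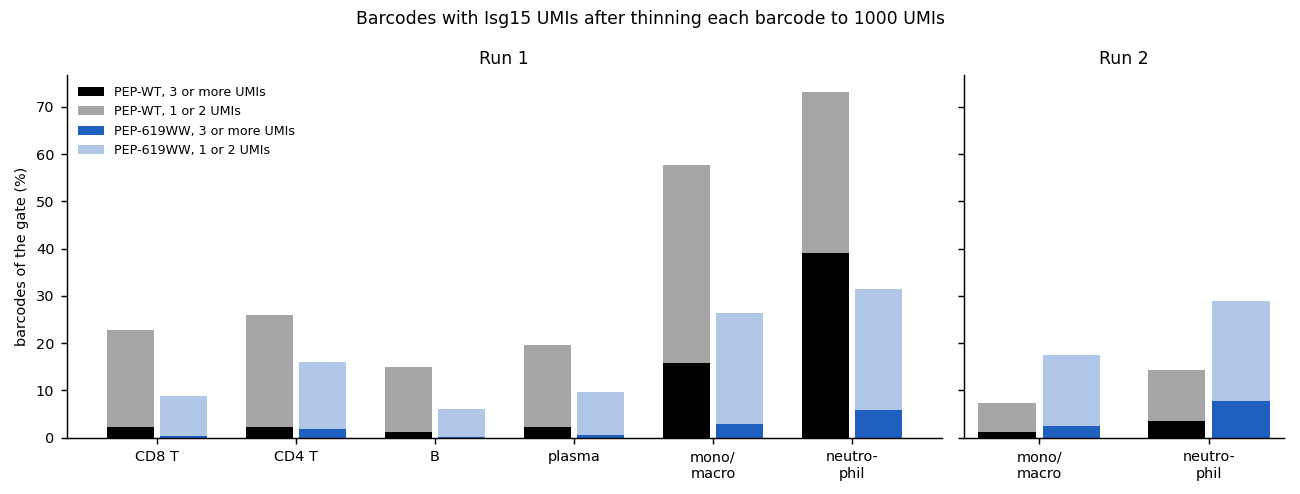
Share of barcodes (y axis, %) with 3 or more (dark) and with 1 or 2 (light, stacked) Isg15 UMIs after each barcode was thinned to 1000 UMIs, by gate, genotype and run. In run 1 the PEP-WT bars are taller in every gate, up to 73.2% against 31.5% in neutrophil barcodes, and in run 2 the PEP-619WW bars are taller.

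In neutrophil barcodes of run 1 the other members were higher where Isg15 was higher. In PEP-WT neutrophil barcodes of run 1, Herc6 was at 73.6 CPM in barcodes with 0 Isg15 UMIs per 1000 and 244 CPM in those with 3 or more, and Usp18 at 64.3 and 198 CPM. Uba7 was at 54.1 and 122 CPM and Ube2l6 at 63.4 and 124 CPM. In run 2 this was seen for Herc6 and Usp18 in both genotypes, while Uba7 and Ube2l6 had at most 5 UMIs in the high class. In PEP-619WW neutrophil barcodes Herc6 was at 37.5 and 283 CPM, and Ube2l6 at 23.2 and 19.2 CPM. In PEP-WT barcodes of run 2 with 3 or more Isg15 UMIs, Uba7 and Ube2l6 had 0 UMIs in 17 barcodes. Within barcodes of run 1 with 0 Isg15 UMIs per 1000, the intervals of the genotypes were apart for some members and gates. They overlapped for Uba7 in neutrophil, plasma and CD8 T barcodes and for all 4 other members in CD4 T barcodes. For this class, too, the share of all genes with intervals apart is not given. In neutrophil barcodes of that class Herc6 was 73.6 CPM (62.6 to 86.1) in PEP-WT and 45.1 CPM (38.8 to 52.1) in PEP-619WW, and in CD8 T barcodes 50.2 CPM (46.0 to 54.8) and 33.1 CPM (29.8 to 36.7). Barcodes with 3 or more Isg15 UMIs were shallower among neutrophils than those with 0, with a median of 2198 against 6350 UMIs in PEP-WT, and the part of depth and mixed barcodes in this pattern was not tested.

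Run 2 gave the opposite direction in the gates it could compare. Isg15 was 106 CPM (104 to 109) in 6488 PEP-WT and 259 CPM (253 to 264) in 4919 PEP-619WW monocyte or macrophage barcodes, a log2 ratio of 1.28 (1.24 to 1.33). The other members were higher too, Uba7 by 0.74, Ube2l6 by 0.98, Herc6 by 1.23 and Usp18 by 1.84. In 590 and 1071 neutrophil barcodes Isg15 was 187 and 564 CPM, a log2 ratio of 1.59 (1.44 to 1.75), with 1.26 for Uba7, 1.06 for Ube2l6, 1.92 for Herc6 and 2.18 for Usp18. All 5 members were thus higher in both gates, where 23.6% and 27.5% of genes were higher and 15.1% and 10.6% lower. The median of all genes was 0.12 and 0.23 in these gates, and relative to it Isg15 was higher by 1.17 and 1.36. Markers of other cells also moved with genotype in these gates. In the monocyte or macrophage gate T cell markers summed to 9.41 and 199 CPM, erythroid markers to 290 and 1.17 CPM and melanocyte markers to 146 and 17.7 CPM, PEP-WT first. In the neutrophil gate T cell markers summed to 38.8 and 210 CPM, erythroid markers to 117 and 2.32 CPM and melanocyte markers to 75.2 and 18.3 CPM. Monocyte or macrophage markers there summed to 1127 and 1330 CPM, against 1799 and 1159 CPM of neutrophil markers. The part of these other cells in the ratios was not tested.

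In run 2 the monocyte or macrophage gate differed in make-up between the genotypes. Barcodes with at least 3 UMIs of C1qa, a macrophage complement gene, were 75.7% of the gate in PEP-WT and 28.9% in PEP-619WW. Those with Ly6c2, a gene of inflammatory monocytes, and no C1qa were 1.48% (96 barcodes) and 28.2%. In run 1 these shares were 15.9% and 16.9% with C1qa and 63.1% and 62.2% with Ly6c2 and no C1qa. Neutrophil content did differ by genotype in run 1: the neutrophil gate also took 34.6% of the gate in PEP-WT and 45.5% in PEP-619WW. In the Ly6c2 subset of run 1 neutrophil markers summed to 4755 and 10996 CPM, against 835 and 574 CPM of monocyte or macrophage markers. In run 2 the same sums were 359 and 122 CPM, against 2360 and 2715 CPM. The rule thus picked barcodes of unlike marker content in the 2 runs. In barcodes of no other gate the run 1 ratio of Isg15 was -1.40, as given above. Within C1qa barcodes of run 2 Isg15 was 91.9 and 253 CPM, a log2 ratio of 1.46 (1.40 to 1.52). Within Ly6c2 barcodes without C1qa it was 552 CPM (490 to 621) and 369 CPM (356 to 382), a log2 ratio of -0.58 (-0.76 to -0.40), against -1.55 (-1.62 to -1.47) for the same rule in run 1. The intervals of the other 4 members in these barcodes of run 2 held 0.

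**Figure D4:**
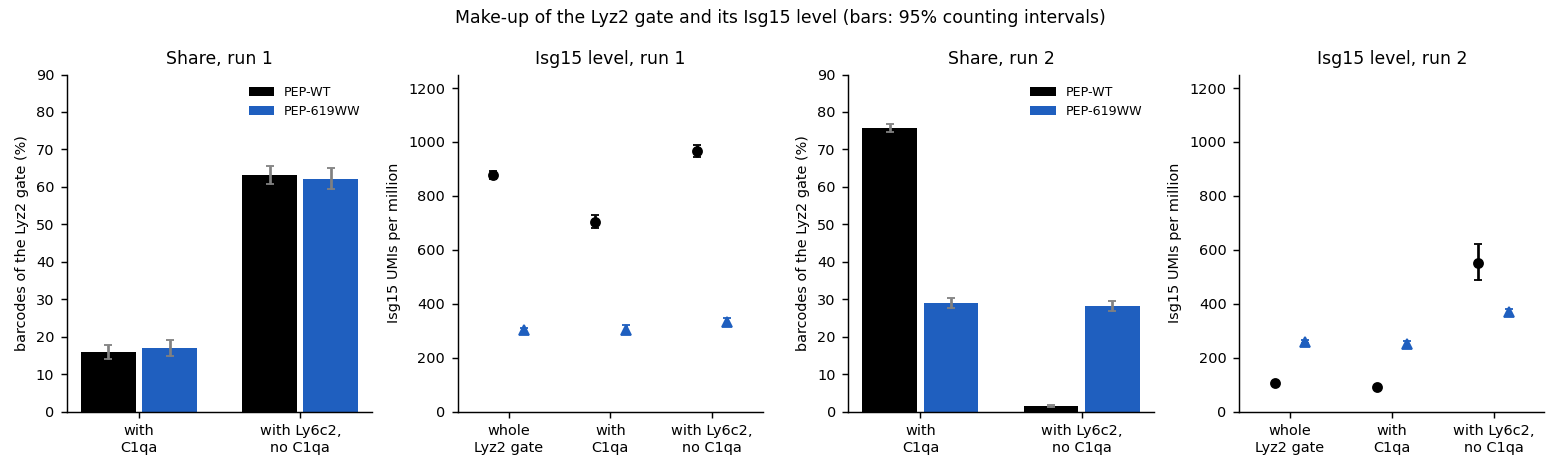
Make-up of the monocyte or macrophage (Lyz2) gate (bars, % of its barcodes) and level of Isg15 in the whole gate and in 2 subsets (points, CPM), for each run, with 95% counting intervals. The Ly6c2 subset is 1.48% of the PEP-WT gate in run 2, and its Isg15 level lies above that of PEP-619WW in both runs. Neutrophil markers summed higher than monocyte or macrophage markers in this subset in run 1 but not in run 2.

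Levels in lymphoid barcodes of run 2 could be read in PEP-619WW alone. Isg15 was at 93.0 CPM (82.6 to 104) in 394 CD8 T, 118 CPM (108 to 129) in 438 CD4 T and 79.4 CPM (66.1 to 94.6) in 503 B barcodes. The values in run 1 were 122, 217 and 108 CPM for the same genotype. NK barcodes of PEP-619WW in run 2 (345) had 68.0 CPM (55.6 to 82.3), and plasmacytoid dendritic barcodes (226) had 92.7 CPM (76.2 to 112). In run 1 the 41 PEP-WT and 16 PEP-619WW plasmacytoid dendritic barcodes had 665 CPM (597 to 738) and 234 CPM (164 to 322), and the 56 and 28 NK barcodes had 189 CPM (135 to 256) and 50.6 CPM (23.1 to 96.1). Both classes lay lower in PEP-619WW in run 1, on few barcodes that also held markers of other cell types. Erythroid markers summed to 9630 and 25.2 CPM in the plasmacytoid dendritic barcodes of run 1, against 992 and 1502 CPM of their own markers. In the NK barcodes of PEP-619WW plasma cell markers summed to 2492 CPM, against 1232 CPM of NK markers. The part of these in the Isg15 levels was not tested.

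Other genes of the pathway were read from lists. The partners were Trim25 and Arih1, ligases that also act on ISG15, Ube2e1, the proteases Usp5, Usp14, Usp16 and Usp21, the ligase subunit Skp2, and Itgal, a subunit of the integrin that binds extracellular ISG15. None of the 9 was lower or higher in 5 gates of run 1. In CD4 T barcodes 1 of 8 tested, Usp14, was lower, at 45.4 and 29.0 CPM, where 6.66% of all genes were lower. In run 2 Itgal was higher in monocyte or macrophage barcodes, at 7.32 and 69.8 CPM, with Usp21 (0.65). Among neutrophil barcodes Itgal and Usp16 were higher (1.58 and 0.67) and Usp14 was lower (-0.83). These 2 of 9 and 2 of 7 higher are near the share of all genes higher, 23.6% and 27.5%.

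The ubiquitin counterparts of the members were also compared, among them the activating enzymes Uba1 and Uba6, the conjugating enzyme Ube2l3, and Herc1 to Herc4. None of the 10 was lower or higher in a gate of run 1. In run 2, 2 of 10 were higher in monocyte or macrophage and 3 of 9 in neutrophil barcodes, near the 23.6% and 27.5% of all genes. Herc4 was at 18.5 and 44.3 CPM in the first, and Herc1 at 48.4 and 92.5 CPM in the second.

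Of 30 other interferon-stimulated genes, 28 were counted under a matched name. In run 1 17 were lower in CD8 T, 3 in CD4 T, 20 in B, 17 in plasma, 16 in monocyte or macrophage and 25 in neutrophil barcodes, and 0 were higher. Over all genes the share lower was 4.69%, 6.66%, 3.95%, 4.28%, 5.14% and 9.55% in the same order, so that the CD4 T count lay near its background. Their median log2 ratio was -0.73, -0.29, -0.66, -0.62, -0.69 and -0.88. The 3 lower in CD4 T barcodes were Ifi35 (-0.71), Oasl2 (-0.65, -0.99 to -0.31) and Ifi44 (-0.59, -1.03 to -0.16). Oasl2 and Ifi44 are among the genes that the study reports as higher in PEP-WT CD4 T cells. Isg20 and Ifi27l2a, which it also names, were not among the 3. Values of these genes in barcodes of a single gate are not given here. Rsad2, which encodes the antiviral enzyme viperin, was at 44.2 and 15.0 CPM in CD8 T barcodes, a log2 ratio of -1.55 (-1.80 to -1.32). Ifit3, which encodes an antiviral RNA-binding family member, was at 461 and 155 CPM in neutrophil barcodes, and Ifi44 at 112 and 47.4 CPM in monocyte or macrophage barcodes. The largest in CD8 T was Oas2, at a log2 ratio of -1.66 (-2.13 to -1.20), and in B Ifit3b, at 23.8 and 10.4 CPM. In run 2, 25 of 28 were higher in monocyte or macrophage and 26 of 27 in neutrophil barcodes (23.6% and 27.5% of all genes).

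Among the 8 genes of the type I interferon receptor and its signaling, Irf7, an interferon-induced transcription factor, was lower in all 6 gates of run 1. It was at 188 and 76.8 CPM in CD8 T barcodes (-1.29), 184 and 111 CPM in CD4 T (-0.72), and 516 and 215 CPM in neutrophil barcodes (-1.26). Stat2, which encodes a subunit of ISGF3, was lower in monocyte or macrophage and neutrophil barcodes (-0.63 and -0.69). The receptor genes Ifnar1 and Ifnar2 and the kinase genes Jak1 and Tyk2 were within 1.5-fold in all 6 gates. In run 2, 7 of 8 were higher in monocyte or macrophage and 6 of 8 in neutrophil barcodes, against the same 23.6% and 27.5%.

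**Figure D5:**
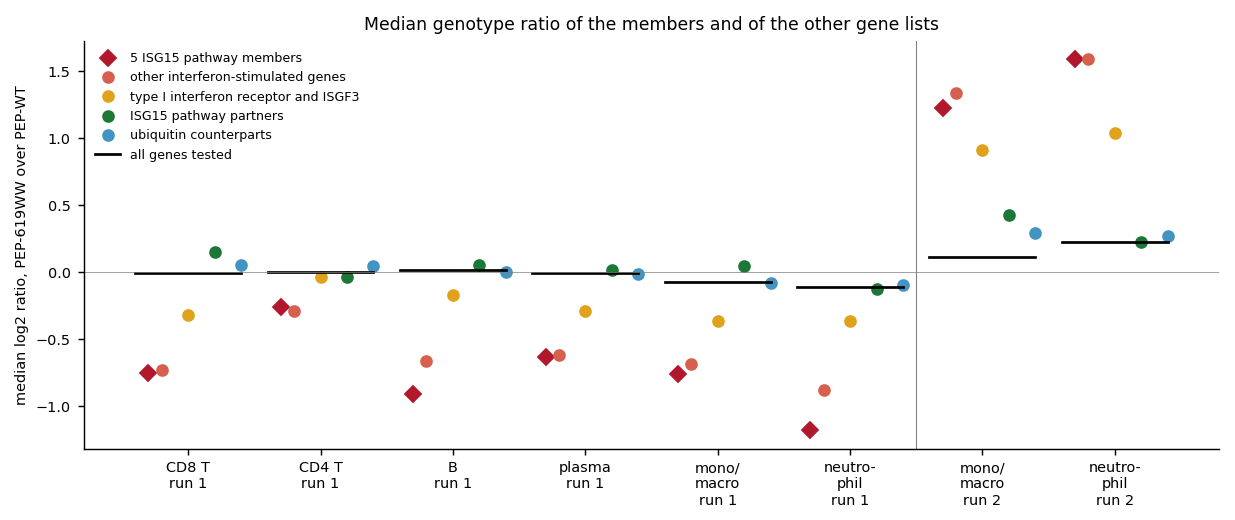
Median log2 ratio, PEP-619WW over PEP-WT (y axis), of the 5 members (diamonds) and of 4 other gene lists (circles) in each gate and run (x axis), with the median of all genes tested as a black line. The members and the other interferon-stimulated genes lie below 0 in run 1 and above 1.2 in run 2, while partners and ubiquitin counterparts lie between -0.13 and 0.15 in run 1.

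Transcripts of the type I interferon genes looked up here were sparse. Ifnb1, Ifna2, Ifna4 and Ifna5 had 0 UMIs in run 1, which allows up to 0.0385 CPM in PEP-WT and 0.0529 CPM in PEP-619WW at 3 counts per library. In run 2 Ifnb1 had 177 UMIs in PEP-WT and 21 in PEP-619WW, or 2.51 and 0.378 CPM over all barcodes, the opposite order to the members of the pathway in that run. Within the monocyte or macrophage gate it was 2.14 and 0.409 CPM, a log2 ratio of -2.39 (-3.30 to -1.59). Ifng, which encodes interferon gamma, was at 190 and 239 CPM in CD8 T barcodes of run 1, a log2 ratio of 0.33 (0.26 to 0.41), and at 105 and 148 CPM in CD4 T barcodes (0.50, 0.29 to 0.71). In monocyte or macrophage and neutrophil barcodes the Ifng interval held 0 (-0.29 to 0.12 and -0.59 to 0.09). The largest ratio of run 1 was in plasma barcodes, at 24.0 and 35.3 CPM (0.55, 0.41 to 0.70). The plasma gate shared 161 of its 2361 barcodes with the CD8 T gate in PEP-WT and 181 of 1893 in PEP-619WW. Ifng reached 1.5-fold in no gate of run 1, and in T cell and plasma gates its ratio had the opposite sign to that of Isg15. In run 2 it was higher in monocyte or macrophage barcodes, at 0.290 and 1.90 CPM (2.71, 1.94 to 3.55). T cell markers in the same gate summed to 9.41 and 199 CPM. The part of T cell RNA in the Ifng ratios was not tested.

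Finally, the genes most like each member were named by Pearson correlation of log2(CPM + 10) over the 19 profiles of gate, genotype and run with at least 50 barcodes, among 11343 genes with at least 500 UMIs. The profiles share libraries, depth and barcodes, and run 1 and run 2 differ in level, so r is a description. Isg15 was most like Oas3 (r = 0.92), Usp18 (0.90), AW011738 (0.90), Ifit3 (0.89) and Irf7 (0.89). Usp18 was most like Irf7 (0.94), Ifit3 (0.94), Xaf1 (0.93), Isg15 (0.90) and Herc6 (0.90). Herc6 was most like Parp14 (0.93), Xaf1 (0.93), Ifit3 (0.93), Ddx58 (0.92) and Ifit3b (0.91). Ube2l6 was most like Ifit2 (0.95), Casp1 (0.94), Oas1g (0.94), 1600014C10Rik (0.94) and Trafd1 (0.92). The genes most like Uba7 included Nt5c3 (0.96), Parp9 (0.93), Ifi47 (0.93) and Tap1 (0.93). Among the members themselves r was lowest between Isg15 and Uba7 (0.61) and highest between Isg15 and Usp18 (0.90).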

How the data were processed

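The authors' counts came from Cell Ranger (version 6.0.0 in the submitters' processing notes, where the Methods name a later version) on the mm10 build. The deposited counts are whole UMI numbers, not normalized, for 32285 genes, of which 32158 matched a symbol. No doublet caller was run and no barcode was left out, so mixed barcodes and free RNA remain in the sums, and RNA other than polyadenylated 3' ends is not seen. UMIs were summed per gate, genotype and run. No test was made. Intervals are exact 95% Poisson, Clopper-Pearson and conditional binomial intervals for counts, shares and ratios. The members, gene lists and gates were chosen with earlier results of these data known. Named genes were the 5 members, the 3 genes with the largest absolute log2 ratio per list and gate with at least 50 UMIs, and the 5 most alike genes; others were named after their values were seen, where a count was 5 or less. Some genes that this rule names are not reported here. Median ratios were also removed by centring. Alternatives were 11 planned settings and 3 added after the data were seen: leaving out shared barcodes, and the C1qa and Ly6c2 subsets. Promoters came from RefSeq and positions from GENCODE M21. Scripts ran under python 3.11.15 with matplotlib 3.10.9, scipy 1.17.1 and numpy 2.4.6. The ratio and its interval were tried on simulated Poisson counts with known changes. These held no spread between barcodes, mice or libraries, so they show nothing about such spread.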

Additional observations from a re-analysis of the deposited data

Results flagged for a closer look

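The direction of all 5 members differed between the 2 runs in both gates that could be compared. In monocyte or macrophage barcodes the log2 ratio of PEP-619WW over PEP-WT was 1.28 in run 2 and -1.54 in run 1 for Isg15, 0.74 and -0.58 for Uba7, 0.98 and -0.72 for Ube2l6, 1.23 and -0.76 for Herc6, and 1.84 and -0.96 for Usp18. In neutrophil barcodes it was 1.59 and -1.93 for Isg15, 1.26 and -0.55 for Uba7, 1.06 and -0.82 for Ube2l6, 1.92 and -1.26 for Herc6, and 2.18 and -1.18 for Usp18. With 1 library per genotype and run, the difference between the runs was not tested, and whether both runs come from the same experiment is not settled.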

How the results depend on the processing

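Of 350 log2 ratios recomputed under the alternatives, 282 stayed within the counting interval of the reported value, 67 left it, and 1 that had reached 1.5-fold changed sign: Isg15 in monocyte or macrophage barcodes of run 2, at -0.58 in those with Ly6c2 and no C1qa, where the number of members higher was 1. Ratios short of 1.5-fold also changed sign in CD4 T barcodes of run 1: Herc6, Usp18 and Uba7 in barcodes of a single gate (0.46, 0.33 and 0.05), Usp18 and Uba7 under stricter gates (0.05 and 0.06) and Herc6 after thinning (0.04). Isg15 left its interval as follows. Barcodes of a single gate gave -1.32 (CD8 T), -0.15 (CD4 T), -1.64 (B), -1.68 (plasma), -1.40 (monocyte or macrophage) and -2.14 (neutrophil) in run 1 and 1.32 (neutrophil) in run 2. Equal weight per barcode gave -1.39, -1.48 (B), -1.26, -1.69 and -2.22 in the same order without CD4 T, and 1.14 in both gates of run 2. Thinning to 1000 UMIs gave -1.52 (B), -1.26 (plasma), -1.73 (monocyte or macrophage) and -2.32 (neutrophil), and 1.15 in both gates of run 2. Stricter gates gave -1.49 (B) and 1.40 (run 2, monocyte or macrophage). Centring on the median gene gave -1.47 and -1.82 in the myeloid gates of run 1 and 1.17 and 1.36 in those of run 2. Without immunoglobulin, hemoglobin and mitochondrial genes in the denominator, plasma gave -1.35. Barcodes with C1qa gave -1.21 in run 1 and 1.46 in run 2, with 2 members lower in run 1. At 2-fold the number of members lower was 2 (CD8 T), 0 (CD4 T) and 1 (B, plasma and monocyte or macrophage), and 3 were higher in monocyte or macrophage barcodes of run 2. In neutrophil barcodes of run 1 Isg15 (-1.93), Herc6 (-1.26) and Usp18 (-1.18) passed 2-fold. Uba7 (-0.55) and Ube2l6 (-0.82) did not. In CD4 T barcodes 1 member was lower in barcodes of a single gate and 1 at a minimum of 200 UMIs, and 3 were higher in run 2 neutrophils at that minimum. The share of all genes past the fold under these settings is not given here. The counts of members under them, also those in C1qa and Ly6c2 barcodes, thus have no background beside them. The cause of the changes between settings was not tested. No paired analysis was possible because each group has 1 sample. Counting intervals do not cover differences between mice or libraries.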

Other observations

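Over all barcodes of run 1, Isg15 was at 470 CPM (465 to 475) in PEP-WT and 172 CPM (168 to 175) in PEP-619WW, and over all barcodes of run 2 at 126 CPM (123 to 128) and 241 CPM (237 to 245). In Isg15 over all barcodes the PEP-619WW libraries of the runs thus lay closer to each other than the PEP-WT libraries did. The runs differed in cell content, and the part of that in these levels was not tested. Erythroid barcodes of PEP-WT in run 2 (22) had Isg15 at 152 CPM (96.2 to 228) against 1778 CPM (1691 to 1869) in the 207 of run 1, while Ube2l6 was at 251 CPM (177 to 344) and 477 CPM (432 to 525). In the 20 erythroid barcodes of PEP-619WW in run 1 Isg15 was at 1300 CPM (1129 to 1490) and Ube2l6 at 339 CPM (255 to 443).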
